A study of Zea mays with 21 samples.

Results

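The stage difference of the maize mutant zb10 was measured by setting its V9 leaf (9th-leaf stage) against the green section of its V4 leaf (4th-leaf stage). This comparison uses 6 of the 21 libraries of the series, 3 for each stage, and all 50142 gene IDs of the count table. Both groups carry the zb10 mutation, which the series title gives as a loss-of-function change in ZmPTOX, an oxidase of plastids. The zb10 leaves are striped, and at V4 green and white sections were sampled apart. The V9 labels name no section, so stage and section sampled change together and cannot be told apart. The labels used here name no allele of zb10, no strain background, no leaf position and no hour of sampling. For comparison, WT V9 leaf was set against WT V4 leaf, also with 3 libraries each. Levels in the white section at V4 and in endosperm of both genotypes, taken 16 days after pollination, are given beside these. In bulk leaf RNA, fewer cells of a type and less RNA per cell cannot be told apart.

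Plastid terminal oxidase passes electrons from plastoquinol to oxygen, and desaturation of the carotenoid precursor phytoene depends on it. Carotenoids protect developing chloroplasts from light, and Arabidopsis mutants lacking this oxidase have variegated leaves with green and pale sectors. Maize leaves also change with plant age. The first leaves are juvenile and coated with wax, later leaves are adult, and regulators of this phase change alter many transcripts between early and late leaves. The table gives no gene names and 0 of its IDs are found in the reference table at hand, so neither these pathways nor leaf marker genes could be looked up. Genes are described by ID and by gene groups. Most groups were built from libraries other than the 6 compared; classes that rest on the 6 are named as such and are descriptions. IDs of the newGene form are loci the table lists beside the reference-style IDs, and are called new loci here.

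The 6 libraries held 30365859 to 53092962 counts, and the 50 most abundant genes took 18.4% to 22.4% of each. WT V9 replicate 1 was far deeper than any other library, with 123050963 counts. The libraries of the 2 stages stood apart on the first principal component, which held 83.2% of the variance against 6.19% for the second. Libraries of 1 stage correlated at 0.976 to 0.987 across genes, on log2(CPM + 0.5) with CPM the counts scaled to TMM-adjusted library size, and libraries of different stages at 0.862 to 0.884. The median SD of a gene within a group was 0.2 at V9 and 0.18 in the V4 green section on that scale, against a median absolute difference of 0.47 between the group means.

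After TMM scaling, which centres the fold changes, nearly as many genes were higher as lower at V9. Of 26292 genes tested, 11439 (43.5%) passed an adjusted p of 0.05 in edgeR's quasi-likelihood test. V9 leaf was higher in 5510 (21.0%) and lower in 5929 (22.6%). With library size as the only scaling, 6363 were higher and 5130 lower, so the balance depends on the scaling. All 3 V9 libraries stood above all 3 V4 green libraries in 27.3% of the genes tested and below them in 29.3%. Large differences were more often on the lower side: 3029 genes were more than 2-fold higher and 3775 more than 2-fold lower, 1481 and 2029 passed 4-fold, and 458 and 753 passed 16-fold. Fitted values of genes with no count at 1 stage, which reach the largest sizes, depend on a prior count. Among the genes called, the median absolute log2 fold change was 1.24. Calls were made at every abundance. With the tested genes split by abundance into 5 bins of equal size, 30.6% were called in the lowest bin (median 0.639 CPM) and 54.2% in the highest (median 69.5 CPM). Leaving out 1 library left 8867 calls (without V9 replicate 3) to 11084 (without V9 replicate 1).

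**Figure D1:**
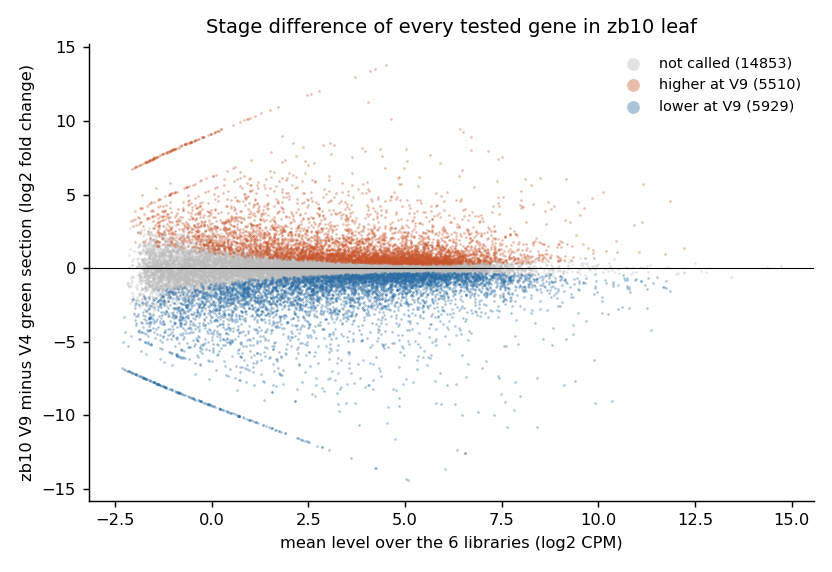
Each point is 1 of 26292 tested genes, with its mean level over the 6 libraries in log2 CPM on the horizontal axis and the log2 fold change of zb10 V9 leaf over the V4 green section on the vertical axis. The 5510 genes called higher and the 5929 called lower are coloured and reach from low to high levels. The straight edges are genes with no count at 1 stage.

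The 4 IDs of largest change within the limits for naming had counts at 1 stage and 0 counts at the other. Zm00001d043461 had 2321, 1826 and 2150 counts in the zb10 V9 libraries and 0 in each V4 green library, which is 43.3 ± 7.24 CPM (SD, n = 3) against 0. Against a floor of 3 counts summed over the V4 green libraries it was at least 1440-fold higher at V9 (adjusted p = 6e-06). Zm00001d014083 had 1340, 2337 and 1393 counts at V9 and 0 in each V4 green library. Its V9 level was 35.2 ± 13.3 CPM, at least 1160-fold higher than at V4 by the same floor (adjusted p = 4.8e-05). Both IDs were also at 0 in all 3 WT V4 and all 3 white section libraries, and at 51.8 ± 31.2 and 30.3 ± 6.27 CPM in WT V9 leaf. In endosperm they had at most 5 counts over the 3 libraries of a genotype.

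The 2 IDs that fell most are new loci. Zea_mays_newGene_3374 had 2383, 1772 and 2342 counts in the V4 green libraries and 0 in each zb10 V9 library. From 64.6 ± 13.5 CPM (SD, n = 3) it was at least 3150-fold lower at V9 (adjusted p = 6.5e-06). Zea_mays_newGene_10510 had 1766, 2295 and 2249 counts in the V4 green section and 0 in each zb10 V9 library. From 62.1 ± 4.63 CPM it was at least 3060-fold lower (adjusted p = 2.4e-06). The WT libraries showed the same pattern, with 66.3 ± 3.43 and 99.9 ± 15.4 CPM at V4 and 0 counts at V9. The white section stood lower than the green, at 29.8 ± 7.1 CPM for Zea_mays_newGene_3374 and 32.6 ± 13.9 CPM for Zea_mays_newGene_10510. These 2 levels are descriptions, and their difference from the green section was not tested.

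**Figure D2:**
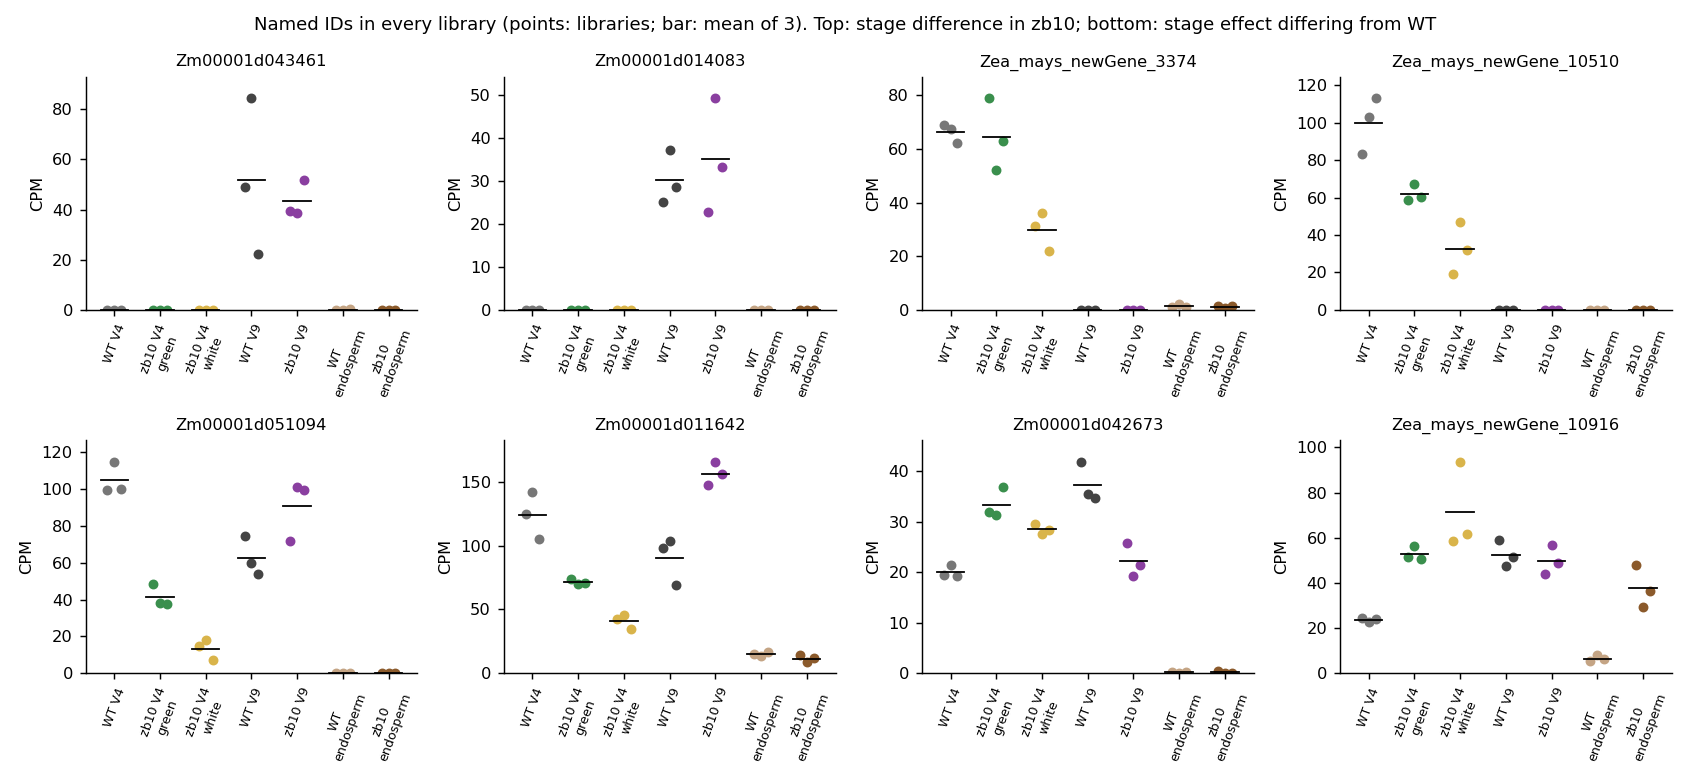
CPM in every library of the 7 groups (points) with the mean of 3 libraries (bar), on linear axes that start at 0, for the 2 highest and 2 lowest IDs of the zb10 stage comparison (top) and for 4 IDs whose stage effect differed from that of WT (bottom). In the top row the 4 IDs are at 0 in every library of 1 leaf stage, in WT as in zb10.

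Transcripts found at only 1 stage formed a larger class, defined on the 6 libraries compared. With at most 3 counts over the V4 green libraries and at least 10 in every zb10 V9 library, 257 IDs were V9-only, and by the converse rule 281 were V4-only. The rule is on raw counts and is not matched for depth. The V9 libraries held 38476897 to 53092962 counts and the V4 green libraries 30365859 to 35353855, so the 2 classes differ in the CPM they demand. Most were rare where present, with medians of 0.611 and 1.17 CPM, and 8 and 17 reached 10 CPM. New loci made up 36.2% of the V9-only and 57.7% of the V4-only IDs, against 13.7% of all genes tested. That base is unlike the classes: it spans all abundances, and only 189 of the V9-only IDs were themselves tested, against all 281 V4-only. In the WT libraries, which share none with this comparison, 79 of the 257 V9-only and 157 of the 281 V4-only IDs met the same rule. WT tested 140 of the V9-only IDs and called 120 higher at V9, and tested 229 of the V4-only IDs and called 218 lower, with 0 called the opposite way in either. Of all genes tested in WT, 21.7% were higher and 22.6% lower, and the IDs that were not tested give no call. An ID near 0 at 1 WT stage passes the count filter mostly through the other stage. The tested IDs are thereby selected towards the same call, so these counts do not measure how far WT repeats the 2 classes. Of the V4-only IDs, 132 reached 1 CPM in the white section, and of the V9-only IDs 1 did. The V9-only rule demands near 0 counts in the green section at V4, and the median of these IDs is under 1 CPM even at V9. The contrast in the white section is therefore partly set by the rule and the cut. WT endosperm held at least 1 CPM of 60 of the V9-only (23.3%) and 26 of the V4-only IDs (9.25%), both below the 69.5% of all genes tested, which include abundant genes.

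Traces of endosperm transcripts moved with the V9 stage. A list of 33 IDs was chosen after the values were seen, with at least 1000 CPM in WT endosperm and at least 100-fold more there than in any leaf group, the 2 compared included. In the zb10 V9 libraries 31, 31 and 32 of them had a count, and in the V4 green libraries 6, 7 and 4. Their median level was 3.24, 1.33 and 6.34 per 100000 of the WT endosperm level in the V9 libraries and 0 in each V4 green library. The WT libraries showed the same, with medians of 1.73 to 10.3 per 100000 at V9 and 0 at V4. Their summed level was low and overlapped, at 18.1 to 41.8 CPM at V9 and 13.6 to 18.3 CPM in the V4 green section. Of the 33, 13 belong to the V9-only class and 13 passed the count filter. The 10 of them called higher at V9 are 0.181% of all higher calls, and the 9 past 16-fold are 1.97% of the higher calls of that size. As IDs near 0 at V4 pass the filter mostly through V9, these counts only show how many calls such IDs make up. Without all genes at least 100-fold more abundant in WT endosperm, 11433 genes were called. Only 21 of the removed genes had been tested, with 11 called higher and 1 lower. Their removal could hardly change the total, so it does not show whether such traces matter. The part of these traces in any single V9-only ID was not tested.

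The stage difference in zb10 was next set beside that in WT. The WT labels name no section, so the choice of the green section at V4 enters this comparison in zb10 alone. In WT, 44.3% of genes were called. V9 leaf was higher in 5697 (21.7%) and lower in 5919 (22.6%) of 26212 genes tested. Both genotypes tested 25510 genes in common. Of these, 4049 were higher at V9 in both, 4390 lower in both, and 8 were called in opposite directions. Calls made the same way in WT were 73.8% of the zb10 calls, and calls made the same way in zb10 were 72.6% of the WT calls. Across genes the log2 fold changes correlated with r = 0.911 (rho 0.861). This is a description over 25510 genes, which are not independent, and the genotypes share stage but no library.

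Among genes tested in both genotypes, the share of zb10 calls that WT repeated rose with the size of the change. Among the 394 genes more than 16-fold higher in zb10 and tested in both, 94.2% were called higher in WT, with median log2 fold changes of 5.34 in zb10 and 4.77 in WT. Among the 687 more than 16-fold lower, 96.7% were called lower in WT, with medians of -5.87 and -6.08. For changes up to 2-fold the shares were 65.8% of 2481 higher and 62% of 2154 lower genes. The higher genes had medians of 0.64 in zb10 and 0.55 in WT, and the lower -0.66 and -0.57. Smaller changes are called less often at the same spread, so these shares do not measure how far small changes are shared. In zb10, 458 genes were past 16-fold higher and 753 past 16-fold lower, and those not tested in WT are left out here. A gene near 0 at 1 stage enters the WT test mostly through the other stage, so the shares for the largest changes are partly set by the count filter. Of the 2743 genes called in zb10 and tested but not called in WT, 2483 (90.5%) had the same sign in WT, and for 1 the difference between the genotypes passed.

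**Figure D3:**
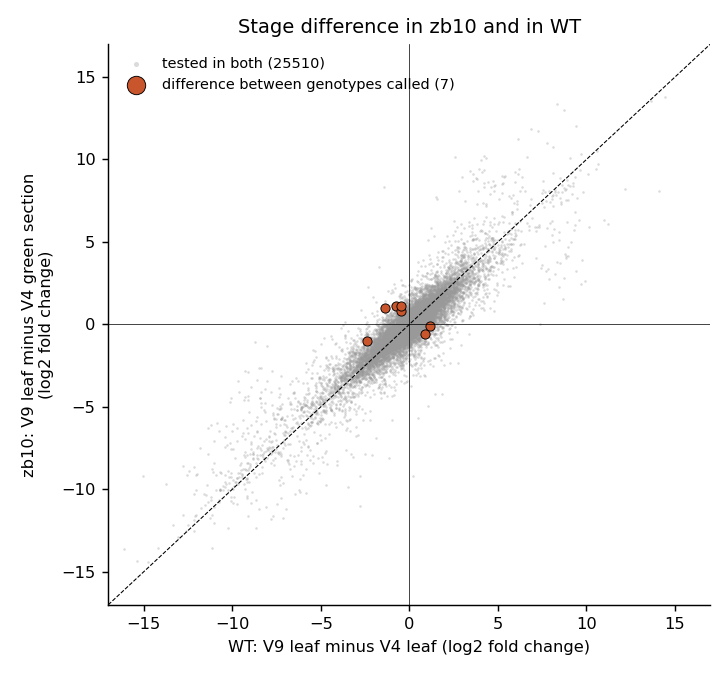
Each grey point is 1 of 25510 genes tested in both genotypes, with the log2 fold change of V9 over V4 leaf in WT on the horizontal axis and of V9 leaf over the V4 green section in zb10 on the vertical axis. Most lie along the dashed line of equal change, and the 7 genes whose stage effect differed between the genotypes (orange) lie off that line near the centre.

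The difference of the stage effects was tested directly, and 7 of 27858 genes passed (0.0251%), 5 with a more positive stage effect in zb10 (0.0179%) and 2 with a more negative one (0.00718%). At an unadjusted p under 0.05 there were 2722. DESeq2 called 398 (157 and 241), and leaving out WT V9 replicate 2 gave 216 (48 and 168). Leaving out each other library but zb10 V4 green replicate 1 also moved the count by over 1.5 times, to between 0 and 16, so the count of 7 rests on the libraries in the fit. Missing calls do not show equal change. Of the 11438 genes called in zb10 and tested here, 5392 (47.1%) had a 95% interval of the difference within 1 log2 unit either side of 0. For genes changed more than 4-fold this held for 8.52%, with a median half-width of the interval of 1.69. The interval can become extremely wide for a gene with 0 counts at 1 stage in both genotypes. For Zm00001d043461 it ran from -2503.96 to 2503.46. The part of such genes in the 8.52% was not tested, so this share does not measure replicate spread alone.

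Of the IDs with a more positive stage effect in zb10, Zm00001d051094 rose in zb10 from 48.5, 38.3 and 37.8 CPM in the V4 green libraries to 72, 101 and 99.7 CPM at V9, with no overlap (log2 fold change 1.14, SE 0.17, adjusted p = 0.0011). In WT it fell from 105 ± 8.97 to 62.8 ± 10.5 CPM (SD, n = 3; log2 fold change -0.73, adjusted p = 0.0049 in edgeR). The stage effects differed by 1.87 on the log2 scale (SE 0.23, 95% interval 1.37 to 2.38, adjusted p = 0.035). Its white section level was 13.3 ± 5.5 CPM, below every green library.

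Zm00001d011642 rose in zb10 from 74, 69.9 and 71.1 CPM to 148, 166 and 156 CPM, again without overlap (log2 fold change 1.14, SE 0.11, adjusted p = 1e-04). In WT it stood at 124 ± 18.5 CPM at V4 and 90.6 ± 18.8 CPM at V9 (SD, n = 3; log2 fold change -0.44, edgeR adjusted p = 0.087). The stage effects differed by 1.58 (SE 0.22, adjusted p = 0.038).

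Zm00001d042673 went the other way. It fell in zb10 from 31.9, 31.4 and 36.8 CPM in the V4 green section to 25.8, 19.2 and 21.4 CPM at V9 (log2 fold change -0.58, SE 0.14, adjusted p = 0.011), and rose in WT from 20.1 ± 1.13 to 37.3 ± 3.99 CPM (SD, n = 3). The stage effects differed by -1.49 (SE 0.18, adjusted p = 0.035). Zea_mays_newGene_10916 was at 52.7 ± 3.01 CPM in the V4 green section and 49.9 ± 6.59 CPM at V9 in zb10 (log2 fold change -0.07, edgeR adjusted p = 0.68). In WT it rose from 23.7 ± 0.986 to 52.5 ± 5.91 CPM, and the stage effects differed by -1.23 (SE 0.17, adjusted p = 0.038). The call of the difference was lost in 10 to 13 of 18 alternatives for each of these 4 IDs, with the direction kept in all.

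Another pair of IDs was chosen after their values were seen, because their levels differ between zb10 and WT leaf. Zm00001d001909, which is lower in zb10 leaf than in WT leaf, rose from 7.85, 7.3 and 7.21 CPM in the V4 green section to 13.5, 16.1 and 15.5 CPM at V9 (log2 fold change 1.02, SE 0.14, adjusted p = 0.00074). In WT it was at 62.7 ± 5.19 and 70.6 ± 13.9 CPM (SD, n = 3), and the difference of the stage effects, 0.84 (95% interval 0.41 to 1.26), did not pass (edgeR adjusted p = 0.2). Zm00001d042453, nearly absent from WT leaf, was at 155 ± 9.62 CPM in the V4 green section and 145 ± 20.3 CPM at V9 (log2 fold change -0.08, edgeR adjusted p = 0.66).

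Gene lists chosen on WT leaf alone took larger shares of the zb10 libraries of the same stage. The 1528 genes more than 4-fold higher at V9 in WT held 9.17%, 8.82% and 8.46% of the counts of the zb10 V9 libraries, and 1.01%, 0.954% and 1.08% in the V4 green section. The 2102 genes more than 4-fold lower at V9 in WT held 1.28%, 1.16% and 1.19% at V9 and 10.2%, 8.81% and 8.76% in the V4 green section. Neither pair of groups overlapped, with a p of 0.1 for both in an exact permutation test (two-sided), the smallest value possible with 3 libraries a side. In WT V9 leaf the shares were 9.46 ± 1.32% and 1.14 ± 0.115% (SD, n = 3). In the white section they averaged 1.43% and 7.63%, nearer to V4 leaf. The first list also held 30.4% of the counts of WT endosperm, and so includes transcripts that are abundant there.

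**Figure D4:**
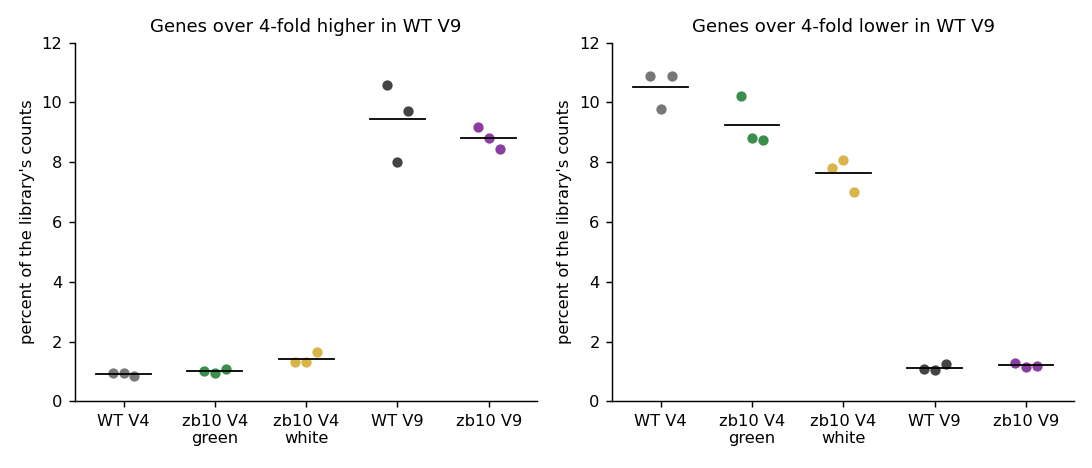
Percent of each leaf library's counts held by the 1528 genes more than 4-fold higher (left) and the 2102 genes more than 4-fold lower (right) in WT V9 than in WT V4 leaf; points are libraries, bars the mean of 3, and both axes start at 0. The WT points chose the lists; the 3 zb10 V9 points sit at 8.46% to 9.17% on the left and 1.16% to 1.28% on the right, and the V4 green points at 0.954% to 1.08% and 8.76% to 10.2%.

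Gene by gene, 1449 of the 1528 were tested in zb10, and 1288 were higher (88.9%) and 0 lower at V9, with a median log2 fold change of 2.75. Of the 2102, 1943 were tested, and 1765 were lower (90.8%) and 0 higher, with a median of -3.07. The median of all genes tested was 0.

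Transcripts typical of leaf shifted with stage, and the direction depended on which WT stage defined them. Leaf-enriched genes were those of at least 10 CPM and at least 16-fold more abundant in WT leaf than in WT endosperm. Of the 2127 so defined from WT V9 leaf, 863 rose (40.6%) and 632 fell (29.7%) at V9 in zb10, against 21.0% and 22.6% of all genes tested, and the median was 0.13. Of 2264 tested that were defined from WT V4 leaf, 361 rose (15.9%) and 1269 fell (56.1%), and the median was -0.64. The 1538 that met the rule at both WT stages had 360 members higher (23.4%) and 625 lower (40.6%), and their median was -0.24. Members at only 1 WT stage moved mostly one way: of 589 from WT V9, 503 rose and 7 fell, and of 726 from WT V4, 1 rose and 644 fell. These lists rest on the WT stage difference.

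Leaf-enriched genes of both stages held 33.3%, 36.4% and 34.8% of counts at V9 and 41.4%, 41.4% and 37.4% in the V4 green section. The groups did not overlap (exact permutation p = 0.1, the smallest possible). The 100 most abundant WT leaf transcripts included 14 that rose (14%) and 50 that fell (50%), and their median was -0.46. Their share of counts was 23.8 ± 1.64% at V9 and 27 ± 1.84% in the V4 green section (SD, n = 3; exact permutation p = 0.2), and the groups overlapped, with 25.1% in V9 replicate 2 and 24.9% in green replicate 3. In WT 17 of the same 100 rose and 37 fell.

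The 9251 genes of similar level in WT leaf and endosperm (at least 10 CPM in 1 of them and within 4-fold) included 2109 that rose (22.8%) and 1552 that fell (16.8%), against 21.0% and 22.6% of all genes tested, and their median was 0.07. More than 4-fold changes numbered 115 and 151 there. When libraries were scaled by size alone, the median over all tested genes was 0.1 and that of this group 0.17. Endosperm-enriched genes numbered 786, of which 318 were tested, and 59 were higher (18.6%) and 46 lower (14.5%). They held 0.144% to 0.163% of counts at V9 and 0.138% to 0.154% in the V4 green section, against 48.4% in WT endosperm.

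**Figure D5:**
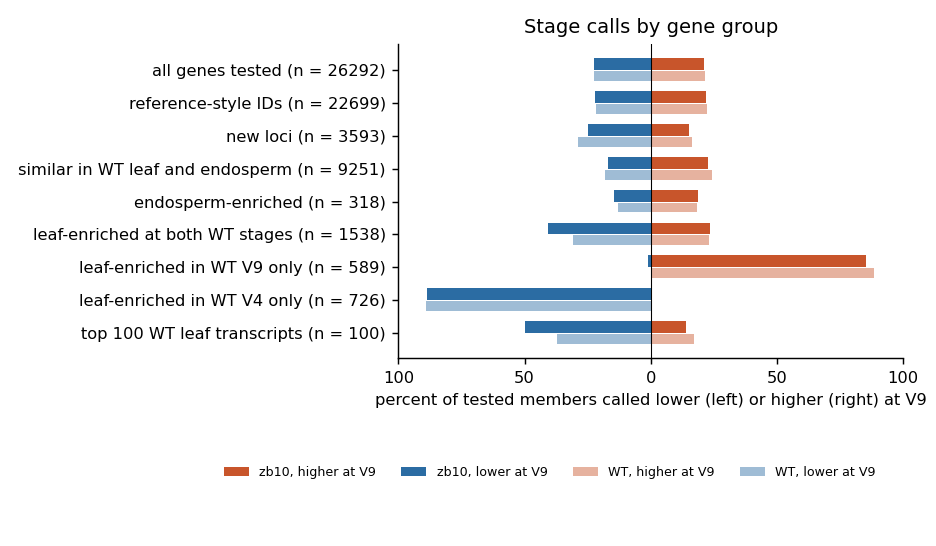
Percent of tested members called higher (right) or lower (left) at V9 in each gene group, for zb10 (dark bars; n in the labels) and WT (pale bars). All genes tested stand at 21.0% higher and 22.6% lower in zb10. The groups enriched at 1 WT stage were chosen on the WT libraries, so their pale bars are no finding.

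New loci were more often lower than higher at V9. Of 10819 new loci 3593 were tested, and 546 rose (15.2%) and 895 fell (24.9%), against 21.0% and 22.6% of all genes tested. The share that rose was farther from that of all genes than the share that fell. The median was -0.15, and more than 4-fold changes numbered 266 and 664. When libraries were scaled by size alone, 627 were higher and 860 lower, and the median was -0.04. Reference-style IDs had 4964 higher (21.9%) and 5034 lower (22.2%) among 22699, with a median of 0.01. Their more than 4-fold changes numbered 1215 and 1365. New loci held 1.89%, 2.3% and 2.13% of counts at V9 and 4.08%, 2.7% and 2.97% in the V4 green section, without overlap (exact permutation p = 0.1, the smallest possible). In WT 567 were higher and 989 lower.

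The white section was then compared with the stage genes, through its difference from WT V4 leaf, which shares no library with the zb10 stage comparison. Genotype and section change together between the white section and WT V4 leaf, and cannot be told apart. In that comparison 31.7% of genes were called, 16.6% with more and 15.1% with less in the white section. Among genes more than 4-fold lower at V9 in zb10, a class that rests on the 6 libraries compared, 1997 were tested there, and the white section had more of 176 (8.81%) and less of 523 (26.2%), with a median log2 fold change of -0.37. Of 962 tested genes more than 4-fold higher at V9, the white section had more of 182 and less of 189, and the median was -0.19. Read the other way, of the 3875 tested genes lower in the white section 852 rose (22%) and 1335 fell (34.5%) at V9. Of the 4050 higher in the white section 895 rose (22.1%) and 841 fell (20.8%), near the 21.0% and 22.6% of all genes tested.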

How the data were processed

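The authors deposited 1 table of raw gene counts with 50142 IDs (39323 reference-style IDs and 10819 new loci). Libraries were made from column-purified RNA with a SMARTer mRNA kit, per the labels' protocols. For the aligner, counter, strand use, annotation and build no tool or version is stated: not given in the sources used here. Genes with near-identical copies or antisense partners are uncertain. Column names call the mutant zb9 and the younger leaf 3L; each was matched to the one labelled group that fits. Replicates are called biological in the series design. Every pair of replicates differed by more than sampling noise.

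The main test was the quasi-likelihood F-test of edgeR 4.0.16 (R 4.3.3), after TMM scaling and filterByExpr (minimum count 10, minimum total 15; Benjamini-Hochberg adjustment over all tested genes, threshold 0.05). The zb10 and WT stage comparisons used their own 6 libraries, the difference of stage effects all 12. White section against WT V4 was added for its gene lists. CPM are TMM-scaled over all libraries. Each SE is the log2 fold change divided by the root of F. Bounds use a floor of 3 counts over the group and cover counting error only. DESeq2 1.42.0 was an alternative, with other scalings, no filter, a replicate block, other libraries in the fit and each library left out. Fits were tested on simulated counts.

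The members and lists were chosen with earlier results of these data known. Planned lists by gene name could not be used, because 0 IDs matched the reference table. Named IDs are therefore the 2 highest and 2 lowest per comparison past the threshold, with a mean log2(CPM + 0.5) of at least 2 and, for the stage comparison, groups that do not overlap. Same-numbered V9 and V4 green libraries did not deviate together.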

Additional observations from a re-analysis of the deposited data

Results flagged for a closer look

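The stage effect (V9 minus V4) differed between zb10, sampled in the green section at V4, and WT in 7 genes by edgeR's test of the difference itself. The 4 named IDs had differences, zb10 minus WT on the log2 scale, of 1.87 for Zm00001d051094, 1.58 for Zm00001d011642, -1.49 for Zm00001d042673 and -1.23 for Zea_mays_newGene_10916 (adjusted p of 0.035, 0.038, 0.035 and 0.038). In zb10 alone the first 3 passed and Zea_mays_newGene_10916 did not (adjusted p = 0.68). Stage and leaf section cannot be told apart in these differences.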

How the results depend on the processing

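The number of zb10 stage calls, 11439, stayed within 1.5 times in every alternative run (8867 to 12751), as did that of WT, 11616 (8753 to 13842). With library size as the only scaling, 55.4% of zb10 calls were higher against 48.2%. The 8 IDs named for the stage comparison or its difference from WT kept their zb10 stage direction where called, and their side of the threshold, in all 15 alternatives that gave a value. The differences in shares of counts kept their sign. The count of genes whose stage effect differed between the genotypes, 7, did not hold. It was 398 with DESeq2, 4 with library size alone, 1 with all 15 leaf libraries in the fit (added after the data were seen), and 0 with a replicate block (2460 at an unadjusted p under 0.05), and ran from 0 to 216 with 1 library left out (0 without WT V4 replicate 2 or 3, zb10 V4 green replicate 3, WT V9 replicate 3 or zb10 V9 replicate 3, with 2209 to 2693 at an unadjusted p under 0.05). The cause was not tested. All 7 genes were among the 398 and among the 216. Deviations from the group mean correlated at -0.13, -0.1 and -0.03 between same-numbered V9 and V4 green libraries. Between the other pairs of libraries they correlated at -0.02 to 0.12. With 3 libraries a side this cannot show whether the numbers pair the samples. With the replicate block 9331 zb10 stage calls were made. Where V4 or V9 is left with 2 libraries, the spread is pooled over the fit. In the least abundant of 5 bins of genes 30.6% were called and in the most abundant 54.2%; the part of depth in this was not tested.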

Other observations

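Reference-style IDs with consecutive numbers moved the same way more often than IDs farther apart. Among 2344 pairs of ID numbers that differ by 1, with both called in the zb10 stage comparison, 60.7% had the same direction. The share was 56.1% at a step of 2, 53.1% at 5, 51.1% at 10 and 50.5% at a step of 200. Among genes changed more than 4-fold at V9, 7 runs of at least 3 consecutive numbers were all higher (22 genes, the longest run 4) and 5 were all lower (15 genes, the longest run 3). The genes in these runs were 1.81% of the 1215 higher and 1.1% of the 1365 lower reference-style IDs. How many runs would arise by chance was not estimated. The files do not give positions, so these are values by ID number only.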
